A study of Mus musculus with 67 samples.

Results

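Aortas of hypotensive BPL/1J mice were compared with aortas of normotensive BPN/3J mice on single-colour expression arrays. The arrays were chosen by the tissue and strain in their titles, which gave 9 BPL and 5 BPN arrays, 14 of the 67 arrays of the series. BPL, BPN and the hypertensive BPH/2J line were bred for low, normal and high blood pressure, and the stated systolic pressures were 69 ± 1.7 mmHg for BPL, 94 ± 6 mmHg for BPN and 142 ± 5 mmHg for BPH, with the kind of error not named. All mice were untreated males 12 weeks old, and the aorta was taken from its root down to the left renal artery. The study describes 5 mice per strain, whereas the labels list 9 BPL arrays and do not tie an array to an animal. The p-values therefore measure the spread between arrays, which may be technical in part, and nothing in the labels names a plate, a scan date or another batch. The 9 BPH aorta arrays serve here for levels and for the estimate of spread, and BPL and BPN arrays of heart (5 and 5), kidney (4 and 5) and liver (5 and 5) for comparison. Each strain is 1 inbred line, so pressure and every other difference between the lines cannot be told apart.

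The aorta is an elastic artery. Smooth muscle cells lie between elastic lamellae in a matrix of collagens, proteoglycans and adhesive proteins, with an endothelium inside and an adventitia and fat outside. Immediate early genes such as Fos are transcribed within minutes of stretch, growth factors or handling, and TGF-beta is a main inducer of matrix genes. Levels below are log2 intensities, so a difference of 1 is a doubling. Differences are BPL minus BPN ± the standard error of a limma fit, p-values were adjusted across the whole table by the method of Benjamini and Hochberg, and a gene said to rise, fall or be called passed 0.05. Defining transcripts of the tissue were high in both strains. Myh11, smooth muscle myosin, averaged 12.95 ± 0.10 (SD, n = 9) in BPL and 12.97 ± 0.07 (SD, n = 5) in BPN, and elastin (Eln) averaged 12.76 ± 0.05 and 13.01 ± 0.04. Array medians lay between 25.3 and 26.6 on the linear scale.

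Of 38385 probe sets, 3971 were called (10.3%), with 1974 higher in BPL (5.14%) and 1997 lower (5.2%). A difference of 2-fold or more was reached by 806 of them (2.1%). Taken with 1 probe set per gene, 2475 of 19147 genes were called (12.9%), 1255 higher (6.55%) and 1220 lower (6.37%), and 481 reached 2-fold (2.51%), with 243 higher (1.27%) and 238 lower (1.24%). The 9 BPL and 5 BPN arrays did not overlap at all for 1237 genes (6.46%), 570 higher (2.98%) and 667 lower (3.48%).

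The genes that stood highest in BPL included a channel subunit, a fatty acid elongase and a kinase. Gabra3 on chromosome X encodes a subunit of the GABA-A receptor, a chloride channel. Its level ran from 11.01 through a median of 11.27 to 11.49 in BPL, and the BPN arrays gave 5.11, 4.88, 4.49, 5.63 and 5.45. The groups lay far apart, with a difference of 6.16 ± 0.13, or 71.7-fold (adjusted p = 3.04e-21). BPH arrays averaged 11.35, so BPN was the line that stood apart. Its other probe sets were also called higher, by 4.01 and 1.42. Elovl3, which elongates fatty acids in brown fat and skin, ran from 6.06 through 8.52 to 9.12 in BPL against 3.63, 3.71, 3.01, 4.59 and 3.61 in BPN. That is a rise of 4.51 ± 0.39, or 22.8-fold (adjusted p = 3.6e-09), with BPH between them at 7.02. Vrk1, a nuclear kinase of chromatin and the cell cycle, ran from 8.54 through 8.61 to 8.76 in BPL against 3.94, 3.6, 4.37, 4.9 and 4.07 in BPN. It differed by 4.46 ± 0.14 (adjusted p = 5.29e-18), and its other probe set by 1.11.

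Further large rises were seen for Prss35, a secreted serine protease homologue, by 4.09 ± 0.16, and for Mid1, a microtubule-associated ubiquitin ligase on chromosome X, by 4.01 ± 0.33. Gchfr, the feedback regulator of GTP cyclohydrolase and so of tetrahydrobiopterin, a cofactor of nitric oxide synthases, ran from 8.34 through 9.59 to 10.33 in BPL. Its BPN arrays gave 5.42, 5.95, 5.55, 5.69 and 5.79, well below every BPL array. The rise was 3.77 ± 0.27 (adjusted p = 1.21e-10), or 13.6-fold. Guca1b, an activator of retinal guanylate cyclase, rose by 3.75 ± 0.15, and its BPH level of 3.81 was close to the BPN mean of 4.12. Pdxdc1 rose by 4.03 ± 0.10 and Tmem87a, a Golgi membrane protein, by 3.92 ± 0.10. For Pdxdc1 the other probe sets went by 0.37 and -0.42 and were not called, so its value rests on 1 probe set. A530053G22Rik, H2-Q10 and 2310069B03Rik completed the largest rises, but their BPN means of 1.97, 2.54 and 2.85 lay below 2.9, the lowest lower quartile of any aorta array, so no fold is given. Their BPL means were 8.37, 8.29 and 7.01. H2-Q10, a class I histocompatibility gene, has near-identical relatives whose transcripts its probes may share.

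**Figure D1:**
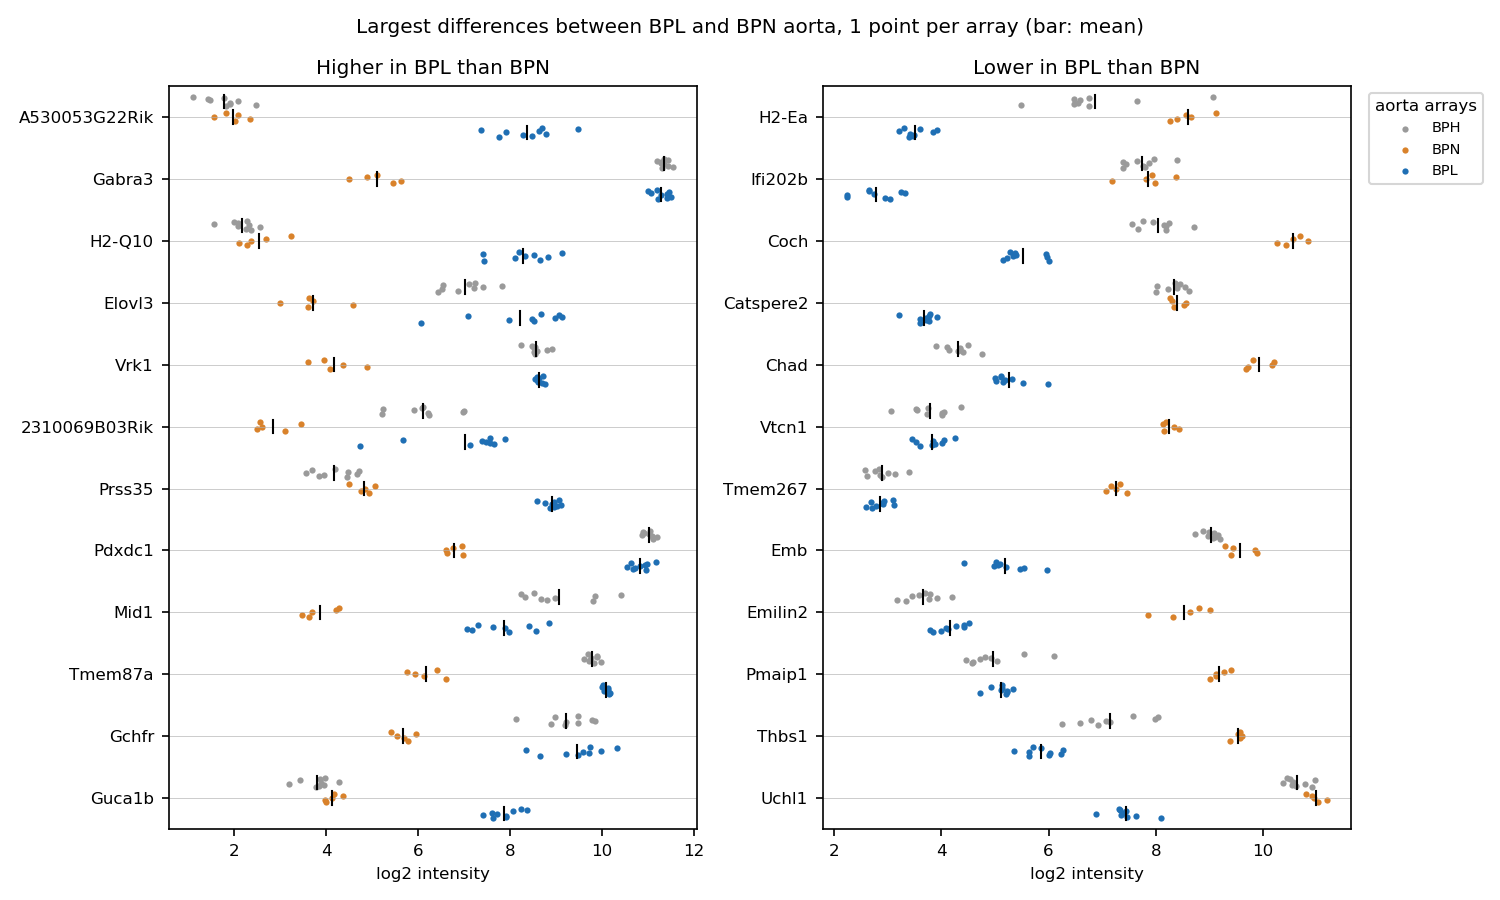
Log2 intensity of the 12 largest rises (left) and 12 largest falls (right) of BPL against BPN aorta, with 1 point per array for 9 BPH (grey), 5 BPN (orange) and 9 BPL (blue) arrays and a bar at each mean. BPL and BPN points do not overlap for any of these genes, which were chosen for the size of the difference between strains whose arrays do not overlap, while BPH lies beside BPL for Gabra3 and Vrk1 and beside BPN for Catspere2 and Uchl1.

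The largest falls held several matrix and adhesion genes. Coch, which encodes cochlin, a secreted matrix protein, ran from 5.16 through 5.38 to 6.01 in BPL, and the BPN arrays gave 10.69, 10.55, 10.84, 10.26 and 10.42. Every BPL array was below every BPN array, and BPH lay between at 8.04. Coch fell by 5.03 on the log2 scale (SE 0.17, adjusted p = 5.26e-17), a 32.7-fold difference. Chad, or chondroadherin, a leucine-rich repeat protein of cartilage that binds collagen and cells, ran from 5.01 through 5.16 to 5.98 in BPL against 9.81, 10.2, 10.16, 9.72 and 9.68 in BPN. Its difference was -4.65 ± 0.15 (adjusted p = 8.18e-18), and BPH was low as well, at 4.31. Emilin2, an elastin microfibril interface protein, ran from 3.78 through 4.12 to 4.51 in BPL against 8.8, 9.01, 8.65, 7.86 and 8.32 in BPN. The difference was -4.37 ± 0.17 (adjusted p = 5.81e-16), again with BPH low, at 3.66.

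Thbs1 encodes thrombospondin 1, which activates latent TGF-beta and opposes nitric oxide signalling. Its BPL arrays ran from 5.35 through 5.86 to 6.28 and its BPN arrays gave 9.57, 9.53, 9.6, 9.57 and 9.38. The groups were well separated, with a fall of 3.67 (SE 0.23, adjusted p = 6.08e-12) that its other probe set matched at -3.61. Emb, or embigin, a transmembrane glycoprotein that pairs with lactate transporters, fell by 4.38, and Vtcn1, a B7 family inhibitor of T cells, by 4.42. Pmaip1, the pro-apoptotic factor NOXA, fell by 4.07, and Uchl1, a ubiquitin hydrolase abundant in neurons, by 3.54. Catspere2, a relative of a sperm calcium channel subunit, fell by 4.72. H2-Ea was lower by 5.08, and its BPL arrays ran from 3.21 to 3.93 against 8.25 to 9.12 in BPN. Ifi202b and Tmem267 had BPL means of 2.79 and 2.86, under the floor of 2.9, against 7.85 and 7.26 in BPN. Ifi202b belongs to a cluster of near-identical interferon-inducible genes.

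Extracellular matrix genes were called lower more often than higher. Their 7 lists cover collagens, basement membrane, elastic fibres, crosslinking enzymes, matricellular proteins, proteoglycans and proteases. Of 118 measured genes, 47 were called lower and 6 higher, 44.9% called in all against 12.9% of all genes, with a median difference of -0.20 against 0.0094 over all genes. Against BPH, with the same BPL arrays, the median was -0.07. Among fibrillar and associated collagens 7 of 12 were called lower and 0 higher, with a median of -0.29. The changes of the abundant chains were small. Col1a1, a chain of type I collagen, ran from 12.89 through 13.07 to 13.10 in BPL against 13.28, 13.34, 13.35, 13.29 and 13.27 in BPN. The groups did not overlap, yet the fall was only 0.28 (SE 0.06, adjusted p = 0.00154). Col3a1 fell by 0.18, Col12a1 by 0.75 and Col16a1 by 0.76.

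Enzymes that hydroxylate, trim and crosslink collagen gave 8 of 16 called lower and 0 higher (50%, against 12.9% of all genes). Their median was -0.33. They included the prolyl hydroxylase subunits P4ha1 and P4ha2, lower by 0.59 and 0.56, the lysyl hydroxylase Plod2, lower by 0.56, and the lysyl oxidases Loxl4, at -0.58, and Lox, at -0.37. The calls of P4ha1 and Lox depended on single arrays, since the adjusted p was 0.0513 for P4ha1 without BPN array 15 and at most 0.0648 for Lox without BPN array 13 or 14. Elastic fibre genes gave 5 of 14 lower and 1 higher (42.9%). Elastin itself fell by 0.25 (SE 0.06, adjusted p = 0.00505), and Ltbp2, a latent TGF-beta binding protein, by 0.55, while Mfap2, a microfibril glycoprotein, rose by 0.44. The Mfap2 call was lost without BPN array 14 or 15 (highest adjusted p = 0.0818). Basement membrane genes gave 2 lower and 2 higher of 15 (26.7%, against 12.9% of all genes), with a median of -0.06. Both higher calls were lost without any 1 of BPL arrays 23, 28 and 29 or BPN arrays 11, 12 and 15. Among them Col4a1, the main type IV chain, had a difference of -0.08 ± 0.05 and was not called.

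Matricellular genes, secreted regulators of how cells meet the matrix, gave 10 of 20 called lower and 0 higher (50%, against 12.9% of all genes). Beyond Coch and Thbs1 they included Ccn1, a growth factor-inducible angiogenic protein. Ccn1 ran from 9.17 through 10.56 to 11.13 in BPL against 11.32, 12.13, 12.33, 12.35 and 11.93 in BPN. Both ranges just met without overlap, and the fall was 1.54 (SE 0.25, adjusted p = 8.75e-05). Its relatives Ccn2 and Ccn5, a profibrotic and a growth-restraining member of the family, fell by 0.79 and 1.40. Matn2, a filament-forming matrilin, fell by 1.54 and Comp, a cartilage thrombospondin also made in artery wall, by 1.26. Thbs2, at 0.11 ± 0.09, was not called. Proteoglycans gave 7 of 20 lower and 0 higher (35%). The aggregating proteoglycan Acan ran from 7.52 through 7.81 to 8.14 in BPL against 8.81, 9.08, 8.99, 9.01 and 8.95 in BPN, a fall of 1.17 (SE 0.12, adjusted p = 1.13e-07). Lum, or lumican, fell by 0.51, while decorin (Dcn) and biglycan (Bgn), at -0.05 and -0.16, were not called.

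Proteases and their inhibitors were called in both directions, 8 of 21 lower and 3 higher (52.4%, against 12.9% of all genes). Mmp3, or stromelysin, ran from 8.96 through 9.49 to 10.22 in BPL against 7.34, 6.66, 7.26, 6.89 and 7.31 in BPN. All BPL arrays were above all BPN arrays, a rise of 2.49 ± 0.16 (adjusted p = 1.2e-11), or 5.60-fold, and BPH was higher still at 10.48. Mmp9, a gelatinase, rose by 1.19 and Timp4, a metalloproteinase inhibitor, by 0.85. Plat encodes tissue plasminogen activator, and ran from 6.35 through 6.57 to 6.87 in BPL against 8.09, 8.12, 8.12, 8.4 and 8.35 in BPN. It fell by 1.64 (SE 0.11, adjusted p = 6.31e-11), or 3.12-fold. Mmp12, the macrophage elastase, fell by 0.94, Mmp2 by 0.65 and cathepsin K (Ctsk) by 0.59, while Mmp14 and Timp2, at -0.08 and -0.03, were not called. Of the other Timp2 probe sets, 2 of 4 were called lower, by 0.39 and 0.38.

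**Figure D2:**
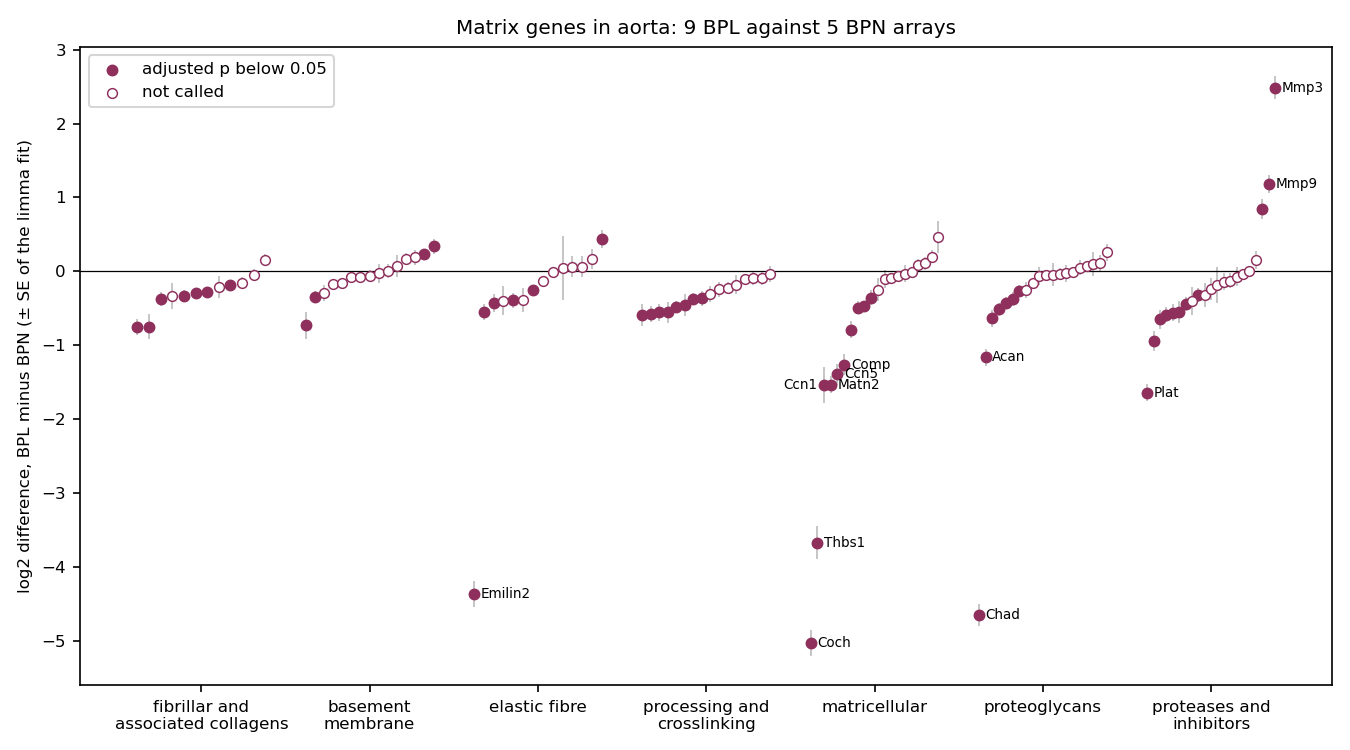
Difference in log2 intensity, BPL minus BPN, of each measured gene on the 7 matrix lists, ordered within its list, with bars for ± the standard error of the limma fit. Filled points were called at an adjusted p below 0.05, and names are given where a called gene differed by 1 or more. Most called points lie below 0, and Mmp3 and Mmp9 stand above 1.

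TGF-beta and BMP signalling genes gave 13 of 29 called lower and 1 higher (48.3%, against 12.9% of all genes). Their median was -0.28 (against BPH, 0.02). Tgfb2, a TGF-beta ligand, ran from 10.74 through 10.95 to 11.24 in BPL against 12.1, 12.13, 12.05, 12.29 and 12.32 in BPN. The groups did not overlap, the fall was 1.18 (SE 0.10, adjusted p = 1.29e-09), and its other probe sets gave -1.15 and -1.37. Tgfb1, the ligand most studied in vessels, differed by 0.12 ± 0.14 and was not called. Inhbb, the activin B subunit, fell by 1.08, and follistatin (Fst), which binds activins, rose by 0.78. Among signal carriers and targets, the inhibitory Smad6 ran from 7.48 through 7.57 to 7.81 in BPL against 8.86, 9.15, 9.62, 8.6 and 8.5 in BPN, a fall of 1.35 (SE 0.18, adjusted p = 6.47e-06). Smad2, a receptor-activated Smad, fell by 1.32, and Id4, a BMP target that inhibits helix-loop-helix factors, by 1.43, although the other Id4 probe set gave 0.03. Smad3 and the receptor Tgfbr2, at 0.09 and 0.06, were not called.

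The BMP ligands Gdf6 and Bmp3 were picked out after their values were seen. Gdf6 averaged 4.72 in BPL and 7.74 in BPN, a fall of 3.02, and Bmp3 averaged 6.64 and 9.20, a fall of 2.55. Neither was called in heart, kidney or liver, where Gdf6 gave 0.02, 0.03 and -0.16. Growth factors and their receptors gave 10 of 29 lower and 1 higher (37.9%, against 12.9% of all genes). They included Igfbp2, an IGF binding protein, at -1.46, Fgf10 at -1.39 and Angpt1, a Tie2 ligand of vessel stability, at -0.91. Angpt2, its counterpart at the same receptor, rose by 0.47. Without BPN array 11, 12 or 13 the count of growth factor genes called lower was 6, 5 and 4, and Angpt1 lost its call without BPN array 11 or 12 (highest adjusted p = 0.062).

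Of 22 smooth muscle contractile genes 5 were called lower and 0 higher (22.7%, against 12.9% of all genes). Their median was -0.11 (against BPH, -0.12). Myh11 differed by -0.03 ± 0.06 and Acta2, smooth muscle actin, by -0.15 ± 0.06, and neither was called. Actg2, the gamma actin of smooth muscle, ran from 11.14 through 11.37 to 11.72 in BPL against 12.32, 12.41, 12.33, 12.59 and 12.48 in BPN. It fell by 1.05 (SE 0.08, adjusted p = 4.88e-10), with no overlap. Desmin (Des) and synemin (Synm), intermediate filament proteins, fell by 0.72 and 0.43. Prkg1, the cGMP-dependent kinase that relaxes smooth muscle, fell by 0.48, and Tagln, an actin-binding protein, by 0.28.

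Vasoactive receptors, peptides and their signalling partners gave 9 of 37 called lower and 2 higher (29.7%, against 12.9% of all genes). P2rx1 is the ATP-gated cation channel by which sympathetic ATP contracts arterial muscle. It ran from 5.54 through 5.78 to 6.10 in BPL, and the BPN arrays gave 8.96, 9.15, 9.15, 9.55 and 9.5. The BPL arrays were all more than 2 log2 units lower, a fall of 3.45 (SE 0.11, adjusted p = 8.6e-18), or 11-fold, and BPH averaged 8.70. Rgs5, a pericyte and smooth muscle brake on G protein signalling, ran from 7.68 through 8.17 to 8.76 in BPL against 9.35, 9.44, 9.7, 9.7 and 9.29 in BPN, a fall of 1.30. Npr3, the natriuretic peptide clearance receptor, fell by 1.20, Bdkrb2, the bradykinin B2 receptor, by 1.07 and endothelin 3 (Edn3) by 0.84. Endothelin 1 (Edn1), at -0.05 ± 0.13, was not called. Avpr1a, the vasoconstrictor V1a vasopressin receptor, rose. Its BPL arrays ran from 6.13 through 6.98 to 7.40 against 5.63, 5.73, 5.07, 5.74 and 5.88 in BPN, a difference of 1.31 ± 0.20 (adjusted p = 4.18e-05). Calcrl, the receptor for CGRP and adrenomedullin, both vasodilators, rose by 0.46.

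Of 11 renin-angiotensin components 2 were called lower and 1 higher (27.3%). Agtr1b, the type 1b angiotensin receptor of rodents, ran from 4.78 through 5.39 to 5.94 in BPL against 6.8, 6.48, 6.64, 6.4 and 6.46 in BPN, a fall of 1.21 (SE 0.16, adjusted p = 5.18e-06). Angiotensin-converting enzyme (Ace) fell by 0.60 (SE 0.09), and its other probe set by 0.50. Agtr1a and angiotensinogen (Agt), at 0.02 ± 0.15 and 0.11 ± 0.14, were not called. The mineralocorticoid receptor Nr3c2 rose by 0.38, a call lost without BPN array 11, 12 or 15 (highest adjusted p = 0.0976). Of 23 endothelial genes 3 were called lower and 1 higher (17.4%, against 12.9% of all genes), with a median of 0.02. Nos3, the endothelial nitric oxide synthase, ran from 7.33 through 7.58 to 7.88 in BPL against 8.18, 8.21, 8.27, 8.1 and 8.08 in BPN, a fall of 0.60 (SE 0.11, adjusted p = 0.000285). The sialomucin endomucin (Emcn) fell by 0.88, while the junction protein Pecam1 rose by 0.33 and VE-cadherin (Cdh5), at -0.14, was not called. In whole vessel, fewer cells of a type and less RNA per cell cannot be told apart.

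Channels of vascular muscle gave 5 of 34 called higher and 2 lower (20.6%, against 12.9% of all genes). Among potassium channels with 2-pore subunits, Kcnk2, or TREK-1, which opens on stretch, ran from 5.57 through 6.18 to 7.04 in BPL against 4.75, 4.7, 4.41, 4.2 and 4.67 in BPN, a rise of 1.63 ± 0.22 (adjusted p = 5.49e-06). Kcnk3, or TASK-1, rose by 1.18, a call lost without BPN arrays 13 and 14 together (adjusted p = 0.202). With the mean of the adipocyte genes as a covariate, Kcnk3 gave 0.23 and was not called (adjusted p = 0.39). Its other probe set, at 0.35, was not called. Kcnk1 ran from 2.97 through 3.36 to 4.07 in BPL against 5.96, 5.82, 6.0, 6.61 and 5.75 in BPN. It fell by 2.58, and BPH stood far above both at 10.08. The pore subunits of ATP-sensitive potassium channels moved in opposite directions, Kcnj11 up by 0.89 and Kcnj8, the vascular form, down by 0.47. Kcnma1, the large-conductance calcium-activated channel, differed by -0.12 ± 0.06 and was not called.

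Immediate early genes gave 15 of 31 called lower and 0 higher (48.4%, against 12.9% of all genes). Their median was -0.38 (against BPH, -0.35). Ptgs2, the inducible cyclooxygenase, ran from 5.33 through 6.64 to 7.41 in BPL, and the BPN arrays gave 7.51, 9.14, 9.85, 10.36 and 9.65. It fell by 2.76 (SE 0.37, adjusted p = 6.77e-06), and BPN array 11 lay just above the highest BPL array. The same array was the lowest BPN array for Atf3, Nr4a1 and some other members. For Myc, also called lower, it was the highest BPN array, at 6.88. Atf3, a stress-induced bZIP repressor, gave 7.79, 11.1, 12.52, 12.42 and 11.43 in BPN 11 to 15, against 7.72 through 8.43 to 9.02 in BPL, so BPN array 11 fell inside the BPL range. The fall was 2.69 (SE 0.50, adjusted p = 0.000435). Nr4a1, an orphan nuclear receptor induced within minutes, gave 7.55, 9.75, 10.92, 10.51 and 9.52 in BPN and 6.86 through 7.59 to 8.03 in BPL, a fall of 2.20 (SE 0.35). Fos, a subunit of AP-1, gave 9.7, 11.24, 11.2, 10.61 and 9.38 in BPN and 7.10 through 8.63 to 9.80 in BPL, a fall of 1.87 (SE 0.39, adjusted p = 0.00175). Its ranges overlapped, as did those of Fosb, which also fell by 1.87. Jun fell by 1.03, Dusp1, a MAP kinase phosphatase, by 0.67 and Zfp36, which shortens the life of cytokine mRNAs, by 0.75. Egr1 and Junb, at -0.37 ± 0.16 and -0.07 ± 0.15, were not called. BPH averages were close to BPN for Fos (10.23) and Nr4a1 (9.70). The list's mean level ran from 7.70 to 8.08 in BPL and from 8.10 to 8.91 in BPN.

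Promoters of 5 called members are shown because these genes fell together and their upstream regions are known for short sites bound by inducible factors. The windows hold 300 bases around the start in RefSeq (GRCm38.p6), 5′ to 3′ on the strand of the gene. They are chr12:85473640-85473939 (plus strand) for Fos, chr15:101266596-101266895 (plus) for Nr4a1, chr1:191183284-191183583 (minus) for Atf3, chr1:150099781-150100080 (plus) for Ptgs2 and chr17:26508423-26508722 (minus) for Dusp1. Capitals mark TGACG, the CREB half-site, read on either strand, and in Dusp1 also the full TGACGTCA, which contains half-sites on both strands.
Fos: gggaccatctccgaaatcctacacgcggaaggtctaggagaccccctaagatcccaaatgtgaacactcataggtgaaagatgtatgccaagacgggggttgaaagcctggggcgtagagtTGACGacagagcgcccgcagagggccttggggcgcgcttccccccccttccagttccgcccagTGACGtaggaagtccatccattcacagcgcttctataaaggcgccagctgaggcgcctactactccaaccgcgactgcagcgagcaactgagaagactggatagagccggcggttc
Nr4a1: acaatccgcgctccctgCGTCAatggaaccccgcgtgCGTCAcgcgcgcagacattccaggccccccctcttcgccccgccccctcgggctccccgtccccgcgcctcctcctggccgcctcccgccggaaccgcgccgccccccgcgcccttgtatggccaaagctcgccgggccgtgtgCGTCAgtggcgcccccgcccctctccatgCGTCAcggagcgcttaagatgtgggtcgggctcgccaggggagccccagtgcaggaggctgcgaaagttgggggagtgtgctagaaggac
Atf3: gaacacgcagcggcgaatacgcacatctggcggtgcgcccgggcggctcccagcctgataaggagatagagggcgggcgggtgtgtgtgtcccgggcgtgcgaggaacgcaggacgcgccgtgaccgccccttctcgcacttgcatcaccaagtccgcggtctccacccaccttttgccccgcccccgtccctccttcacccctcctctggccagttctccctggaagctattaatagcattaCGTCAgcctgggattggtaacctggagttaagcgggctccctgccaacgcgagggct
Ptgs2: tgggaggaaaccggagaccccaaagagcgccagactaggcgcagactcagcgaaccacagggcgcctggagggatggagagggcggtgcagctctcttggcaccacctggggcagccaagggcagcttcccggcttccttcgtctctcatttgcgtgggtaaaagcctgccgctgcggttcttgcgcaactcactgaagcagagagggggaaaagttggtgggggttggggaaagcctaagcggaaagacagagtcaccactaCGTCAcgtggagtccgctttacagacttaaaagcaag
Dusp1: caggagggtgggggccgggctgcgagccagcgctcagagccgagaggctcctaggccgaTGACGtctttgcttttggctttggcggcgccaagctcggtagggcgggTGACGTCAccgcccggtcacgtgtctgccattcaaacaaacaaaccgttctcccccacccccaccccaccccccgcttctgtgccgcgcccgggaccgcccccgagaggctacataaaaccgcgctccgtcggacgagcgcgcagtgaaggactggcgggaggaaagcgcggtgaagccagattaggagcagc

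Of 26 immediate early genes with a window, 17 held TGACG on either strand (65.4%), against 23% of all 27025 windows. Among contractile genes 6 of 20 held it (30%) and among matrix genes 14 of 86 (16.3%). The 17 immediate early genes with TGACG included the called members Atf3, Csrnp1, Dusp1, Fos, Fosb, Mafk, Nr4a1 and Ptgs2. Also included were Btg2, Egr2, Egr4, Junb, Klf2, Klf4, Maff, Nr4a2 and Nr4a3, which were not called. The half-site was chosen after the sequences were seen, and a match describes letters in a window, not a bound site. The full TGACGTCA was held by 3 of 26 (11.5%), Btg2, Dusp1 and Maff, against 2.03% of all. Of these genes Dusp1 was called lower, and Btg2 and Maff were not called. TGANTCA, the AP-1 site, was held by Csrnp1 only, 1 of 26 (3.85%), against 8.97% of all. The CArG box, the site of serum response factor, was found in Egr2 and Zfp36 (7.69%, against 1.81% of all windows).

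Heat shock and unfolded protein genes gave 7 of 14 called lower and 0 higher (50%, against 12.9% of all genes). Their median was -0.26 (against BPH, -0.20). Hspa1b, the inducible HSP70, ran from 7.94 through 8.25 to 8.92 in BPL, and the BPN arrays gave 9.27, 10.67, 11.61, 11.67 and 11.34. It fell by 2.65 (SE 0.32, adjusted p = 1.49e-06) without overlap, though its probes may also read its near-identical neighbour. Hsph1, an HSP70 exchange factor, fell by 1.58 and the small heat shock protein Hspb1 by 1.05. Dnajb1, an HSP40, was lower by 0.86, and its call was lost without BPN array 13, 14 or 15 (highest adjusted p = 0.124). Without BPN array 13 or 15 the count of called members was 4. In kidney 6 of these 14 genes were called lower in BPL, in liver 8 and in heart 3. Of all probe sets, 6.24%, 7.47% and 9.34% were called in those tissues, in either direction.

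**Figure D3:**
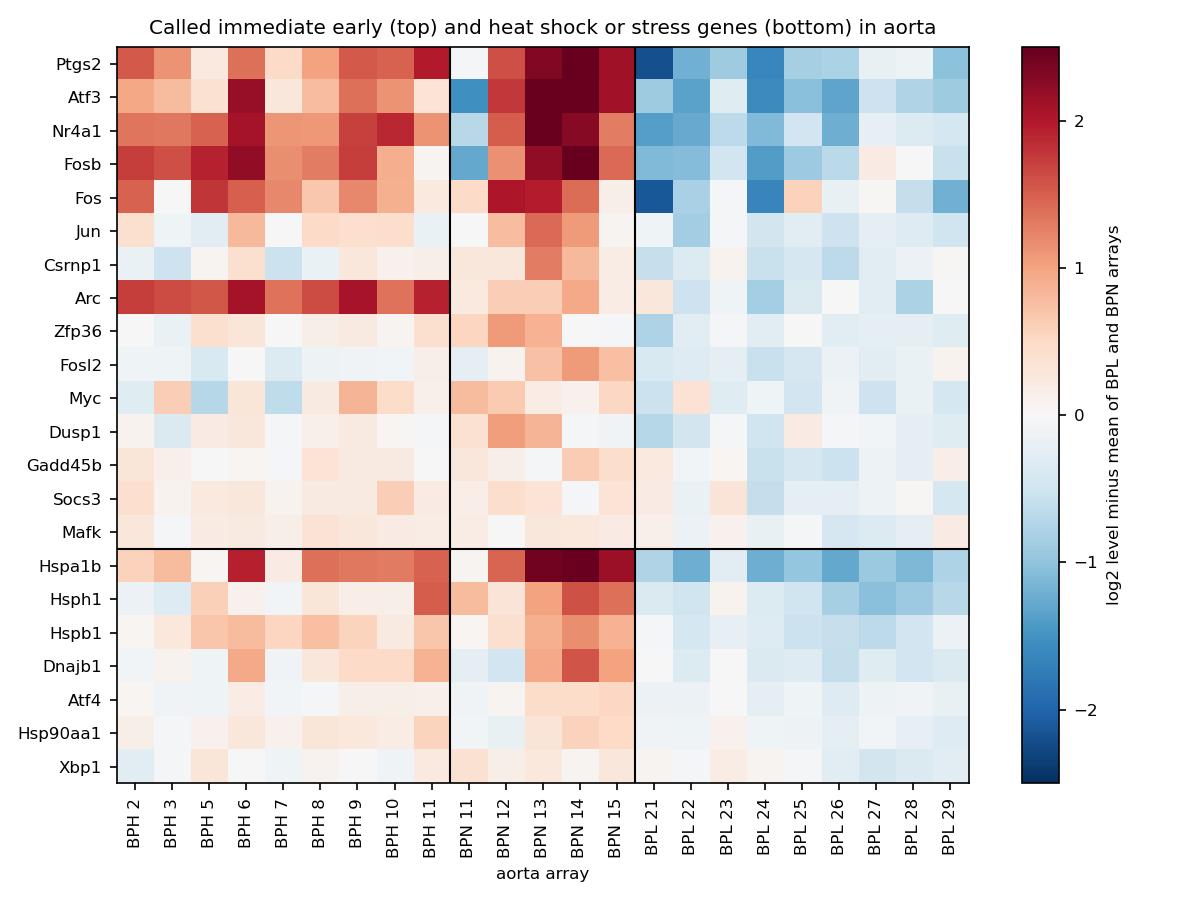
Log2 intensity of the 15 called immediate early genes (top) and 7 called heat shock or stress genes (bottom) in each aorta array, as the level minus the gene's mean over BPL and BPN arrays. Columns are 9 BPH, 5 BPN and 9 BPL arrays, red is above and blue below that mean, and colours saturate at the ends of the scale. BPN arrays 12 to 15 are mostly red and BPL arrays mostly blue, while BPN array 11 is pale or blue for Atf3, Nr4a1 and Fosb.

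Transcripts of fat tissue were abundant in all aorta arrays, and lipid synthesis genes were higher in BPL. Of 21 genes of fatty acid oxidation and synthesis 12 were called higher and 0 lower (57.1%, against 12.9% of all genes). Their median was 0.68 (against BPH, 0.17). Fasn, fatty acid synthase, ran from 9.68 through 11.30 to 11.95 in BPL against 9.1, 8.94, 8.02, 8.44 and 8.7 in BPN, a rise of 2.41 ± 0.32 (adjusted p = 6.02e-06), or 5.33-fold. No BPL array was as low as any BPN array. Elovl6, an elongase, rose by 2.20, Acly, which makes cytosolic acetyl-CoA, by 1.54 and Acaca, acetyl-CoA carboxylase, by 1.32. In liver the same genes went the other way or were not called, with Fasn at -1.09, Elovl6 at -0.71 and Acly at -0.65, all called, and Acaca at -0.12.

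On the adipocyte list 5 of 21 were called higher and 2 lower (33.3%, against 12.9% of all genes). The median was 0.58 (against BPH, 0.09), and without BPN array 11 or 14 the count higher was 8 and 3. Genes known from brown fat were called in both directions. Ucp1, the uncoupling protein, ran from 12.41 through 12.93 to 13.11 in BPL against 11.42, 11.7, 11.36, 9.84 and 12.19 in BPN, a rise of 1.55 ± 0.24 (adjusted p = 3.64e-05). Otop1, a proton channel of brown fat, ran from 9.95 through 11.05 to 11.75 against 9.33, 9.29, 8.32, 7.32 and 9.39, a rise of 2.25 ± 0.33. Cox7a1, a respiratory chain subunit of muscle and brown fat, rose by 1.23, a call lost without BPN array 14 (adjusted p = 0.0639). Leptin (Lep), a hormone mainly of white fat, ran from 4.85 through 5.41 to 6.57 in BPL against 9.07, 7.57, 7.62, 6.53 and 7.76 in BPN, a fall of 2.00 (SE 0.38). Dio2, the deiodinase that activates thyroid hormone in brown fat, fell by 0.39 (SE 0.10, adjusted p = 0.0138), a call lost without BPN array 11 (adjusted p = 0.0559). Markers common to adipocytes were not called. Adipoq, the hormone adiponectin, gave 0.23 ± 0.19, Plin1, a lipid droplet protein, 0.63 ± 0.27, and Fabp4, a fatty acid carrier, 0.24 ± 0.09.

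The list's mean level differed between arrays of 1 strain. It was 10.32, 10.04, 9.67, 9.04 and 10.26 in BPN arrays 11 to 15, and ran from 10.03 through 10.65 to 11.02 in BPL. BPN array 14 was lowest for Adipoq, Ucp1 and Otop1. With this mean as a covariate, an alternative chosen after seeing the data, 6 lipid genes were called higher, and 6 without BPN arrays 13 and 14. Fasn then gave 1.65 (adjusted p = 0.000561), Elovl3 3.96 and Ucp1 0.86. Elovl3 and Ucp1 are members of the adipocyte list, so they were adjusted for a mean that includes their own levels. How far the amount of fat on each vessel took part in the lipid results was not tested otherwise. Respiratory chain genes gave 11 of 22 higher and 0 lower (50%, against 12.9% of all genes), with a median of 0.46 (against BPH, 0.12). Among them was Uqcrfs1 of complex III at 0.67 ± 0.16. The respiratory count fell to 6 without BPN array 13, to 4 without BPN array 14 and to 0 with the fat mean as a covariate. The same covariate left 5 immediate early, 4 heat shock, 2 contractile, 3 fibrillar collagen, 5 crosslinking and 6 TGF-beta and BMP genes called lower, while Ptgs2 (-2.13), Nr4a1 (-1.62) and Atf3 (-1.81) were still called and Fos (adjusted p = 0.0639), Fosb (0.175), Dusp1 (0.0808) and Csrnp1 (0.0737) were not.

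**Figure D4:**
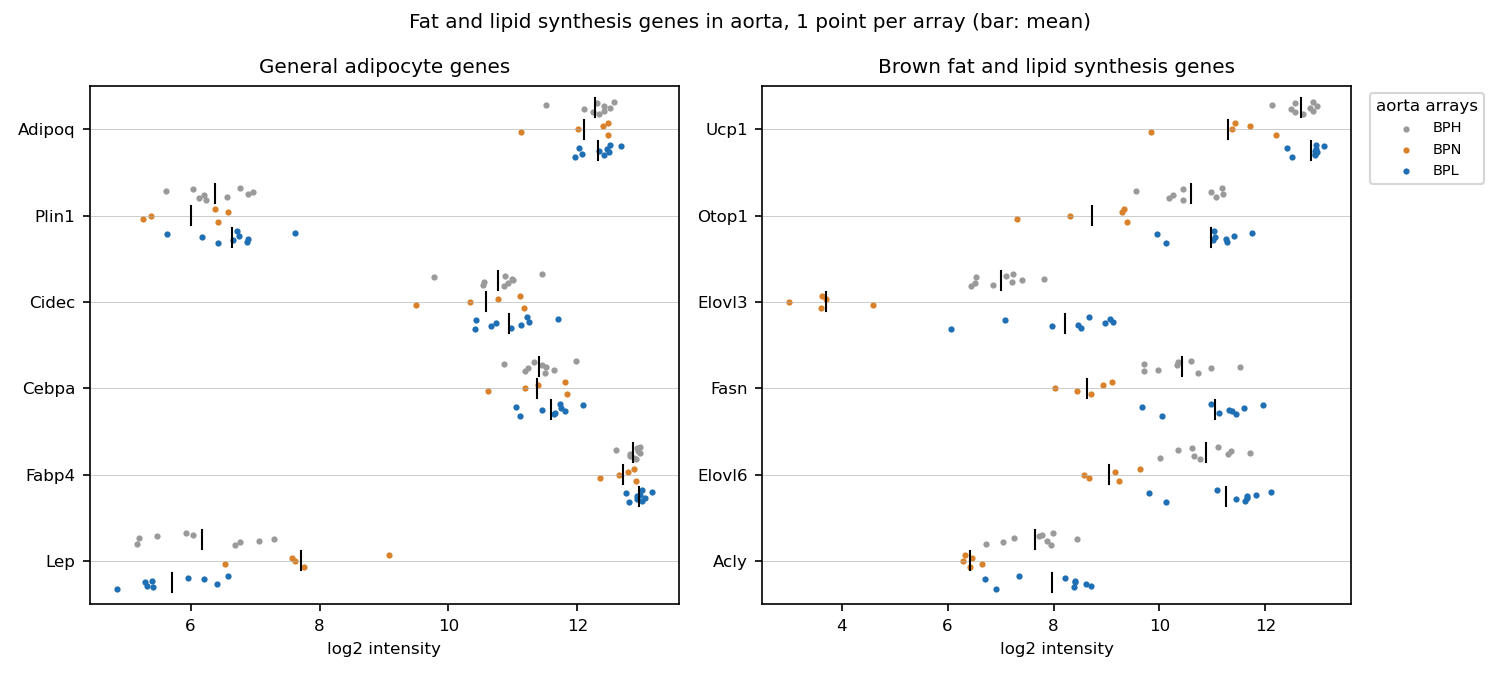
Log2 intensity of general adipocyte genes and leptin (left) and of brown fat and lipid synthesis genes (right) in aorta, with 1 point per array for 9 BPH (grey), 5 BPN (orange) and 9 BPL (blue) arrays and a bar at each mean. Strains overlap for Adipoq, Plin1, Cidec, Cebpa and Fabp4, whereas all BPL points lie above all BPN points for the 6 genes on the right.

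Antigen presentation genes were called in both directions. Of 12 class II genes 5 were called lower and 2 higher (58.3%, against 12.9% of all genes). Their median was -0.39 (against BPH, 0.25). Besides H2-Ea, the class II chain H2-Ab1 ran from 7.58 through 8.13 to 9.28 in BPL against 10.04, 9.97, 9.63, 9.38 and 9.24 in BPN, a fall of 1.35 (SE 0.32, adjusted p = 0.00476), and the highest BPL array just passed the lowest BPN array. The invariant chain Cd74 was lower by 1.07 (adjusted p = 0.0369) and H2-DMa, which helps load peptides, by 1.15. H2-DMb1, the partner chain of H2-DMa, went the other way, with BPL from 7.92 through 8.04 to 8.22 and BPN at 7.23, 7.36, 7.05, 6.91 and 6.91, a rise of 0.99 ± 0.24. The H2-DMb1 call was lost with the adipocyte mean as a covariate (0.74, adjusted p = 0.141). It was also lost without BPN arrays 13 and 14 together (adjusted p = 0.0725). The other higher call, H2-Ob, at 0.42 (adjusted p = 0.0492), was lost in 11 of 14 fits that left out an array, and its other probe set gave -0.52. The count of class II members called lower was 3 without any 1 of BPL arrays 24, 25 and 28 or BPN arrays 11 to 14. Near-identical class II and class I genes may share probes.

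Interferon-inducible genes gave 4 of 31 higher and 5 lower (29%, against 12.9% of all genes), and 3 lower without BPN array 12. Guanylate-binding proteins, interferon-induced GTPases, lie side by side on chromosome 3 and made up most of the longest run of neighbouring called genes, 9 in a row from Unc5c to Kyat3. Within it Gbp2b ran from 8.55 through 8.77 to 8.91 in BPL against 5.19, 4.67, 5.2, 5.11 and 4.98 in BPN, a rise of 3.74 ± 0.14 (adjusted p = 3.81e-16). Its neighbours Gbp5, Gbp3, Gbp2 and Gbp7 fell by 1.23, 0.82, 0.72 and 0.37. Because these genes are close in sequence, part of 1 gene's signal may come from another. At the ends of the run Kyat3, a kynurenine aminotransferase, rose by 1.52, Unc5c rose by 0.44, and Bmpr1b, a BMP receptor, and Pdlim5 fell by 0.74 and 0.48. The next longest runs held 5 genes, and called genes had a called next neighbour in 18.5% of cases against 13% called among all placed genes. On chromosome 5, Gbp8 rose by 3.01, a gene picked out after its values were seen.

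Markers of immune cells were rarely called. Macrophage genes gave 2 of 17 lower and 0 higher, T, B and NK cell genes 2 of 18 lower, and mast cell and neutrophil genes 1 of 16 lower, shares of 11.8%, 11.1% and 6.25% against 12.9% of all genes. These counts were small and unsteady: without BPN array 14 there were 5 macrophage genes called lower and without BPN array 11 there were 0, and without BPN array 15 there were 7 T, B and NK cell genes. The T, B and NK cell list had a median of -0.49, and its mean level ran from 4.84 to 5.89 in BPN and from 4.85 to 5.24 in BPL. Tpsb2, a mast cell tryptase, fell by 1.23. Chemokines, cytokines and their receptors gave 9 of 34 lower and 1 higher (29.4%). The interleukin Il18 ran from 5.83 through 6.36 to 7.05 in BPL against 8.34, 8.15, 7.86, 7.6 and 7.85 in BPN. It fell by 1.56 (SE 0.18, adjusted p = 5.02e-07). Without BPN array 12 or 13 the count of the chemokine list called lower was 5. No member was called higher in 11 of the 14 fits that left out an array. The member called higher in the main fit was Cxcl12, at 0.27. Another probe set of Cxcl12 rose by 1.10 (adjusted p = 3.87e-05), and a further probe set, at 0.19, was not called. Tnfaip6, a hyaluronan-binding protein induced by inflammation, was picked out after its values were seen and averaged 6.60 in BPL and 9.51 in BPN, a fall of 2.91. Itga4, an integrin chain of leukocytes and developing muscle, fell by 1.44.

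Genes of striated muscle, which adjoins the aorta at its root, gave 4 of 22 called higher and 0 lower (18.2%, against 12.9% of all genes). Actc1, cardiac actin, ran from 9.09 through 9.69 to 10.38 in BPL against 5.35, 6.33, 6.01, 6.83 and 6.7 in BPN, a rise of 3.50 ± 0.60 (adjusted p = 0.000181), and BPH averaged 5.46 ± 1.78. Tnnc1, the troponin C of heart and slow muscle, rose by 2.49 and Myh7, the slow beta myosin, by 1.32. Myh6, the main myosin of adult mouse heart, differed by -0.62 ± 0.66 and was not called. The list's mean level ran from 5.84 to 6.70 in BPL and from 5.71 to 5.96 in BPN. The part of heart tissue in these values was not tested otherwise. Cartilage genes gave 5 of 14 lower and 1 higher (42.9%). Besides Chad, Acan and Comp, the cartilage factor Sox9 fell by 1.20, although its other probe set, at -0.30, was not called, and Ibsp, bone sialoprotein, rose by 2.11. The mean of that list lay between 5.46 and 5.66 in BPL and between 6.00 and 6.22 in BPN. That mean includes Chad, which fell by 4.65, whereas the list's median difference was -0.10. Oxidant and antioxidant enzymes gave 4 of 27 higher and 2 lower (22.2%). Xdh, xanthine dehydrogenase, ran from 8.16 through 8.50 to 8.91 in BPL against 6.4, 5.66, 5.96, 5.17 and 6.15 in BPN, a rise of 2.62 ± 0.15 (adjusted p = 1.44e-12). Extracellular superoxide dismutase (Sod3), which sits in the vessel matrix, fell by 0.30.

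The remaining lists are given with their shares called, beside 12.9% of all genes. Cholesterol synthesis and transport gave 4 of 18 lower (22.2%), led by the sterol carrier Stard4 at -1.03, and 2 without BPN array 14. Complement and coagulation gave 5 of 18 lower (27.8%), led by complement factor I (Cfi) at -1.63, and 3 without BPN array 15. Sympathetic genes gave 2 of 11 lower (18.2%), clock genes 2 of 18 (11.1%), and integrins and focal adhesion genes 3 of 20 (15%). Fibroblast genes gave 3 of 13 lower (23.1%), mesothelial genes 1 of 9 (11.1%) and cell cycle genes 1 of 16 (6.25%). Class I presentation genes gave 2 lower and 1 higher of 17 (17.6%). Schwann cell and neuron genes gave 2 lower and 2 higher of 11 (36.4%). Without BPN array 13, 14 or 15 the clock count was 1, without BPN array 11, 13 or 15 the class I count called lower was 1, and the 1 called cell cycle gene, the mitotic kinase Cdk1, lost its call in 11 of 14 fits that left out an array (highest adjusted p = 0.174). Without BPN array 14 the Schwann cell and neuron counts were 1 lower and 1 higher. Adrenal, kidney and liver genes gave 0 of 13 called and red blood cell genes 0 of 4.

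The same strain comparison was made within heart, kidney and liver. Of the 3971 probe sets called in aorta, 969 were called in the same direction in heart (24.4% of the aorta calls and 27% of the 3586 heart calls), 632 in kidney (15.9%, and 26.4% of 2396) and 593 in liver (14.9%, and 20.7% of 2866). Opposite directions were called for 141, 156 and 171. The background called was 9.34% of probe sets in heart, 6.24% in kidney and 7.47% in liver. In all 4 tissues 218 probe sets were called the same way, 106 higher and 112 lower. Among them Cyp4b1, a fatty acid and xenobiotic hydroxylase, rose by 3.53 in aorta and by 2.45, 3.20 and 2.81 in heart, kidney and liver. Rbm45, an RNA-binding protein, rose by 2.76, 1.91, 2.22 and 1.93. Adgre5, the adhesion receptor CD97 of leukocytes and smooth muscle, fell by 2.85, 1.81, 1.87 and 2.19 in the same order. H2-Ea fell by 5.08, 4.17, 4.10 and 3.48.

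Of the aorta calls, 1326 probe sets, some of them also among those 218, had a strain difference in aorta unlike that in each of the other 3 tissues. The gap lay in the direction of the aorta change each time. A joint fit tested the difference of differences with its sign, so an opposite change elsewhere, even a larger one, could count. Aorta RNA was amplified by another protocol than the other tissues, so tissue and amplification cannot be told apart in these tests. Coch fell by 5.03 in aorta and by 0.34 in heart, differed by 0.02 in liver, where it was not called, and rose by 2.39 in kidney. Its aorta value differed from that of heart, the nearest, by -4.69 (adjusted p = 2.73e-29). Chad differed by -0.26, -0.06 and 0.16 in heart, kidney and liver, none called, and Vtcn1 by -0.15, 0.24 and 0.98. Emb gave -0.31, -0.84 and 0.16 in the same order, and of these values those of Vtcn1 in liver and Emb in kidney were called. Elovl3, at -0.07 in heart and 0.03 in kidney, was lower in BPL liver by 1.05. Gabra3 was called in all 4 tissues, at 0.84, 1.01 and 0.44 outside the aorta, and its rise in aorta was larger by 5.15 than that in kidney, the nearest tissue. P2rx1, at -0.10, 0.22 and 0.03, and Thbs1, at -0.57, -0.56 and -0.21, differed far less outside the aorta. Their aorta values differed from those of heart by -3.35 and -3.10.

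**Figure D5:**
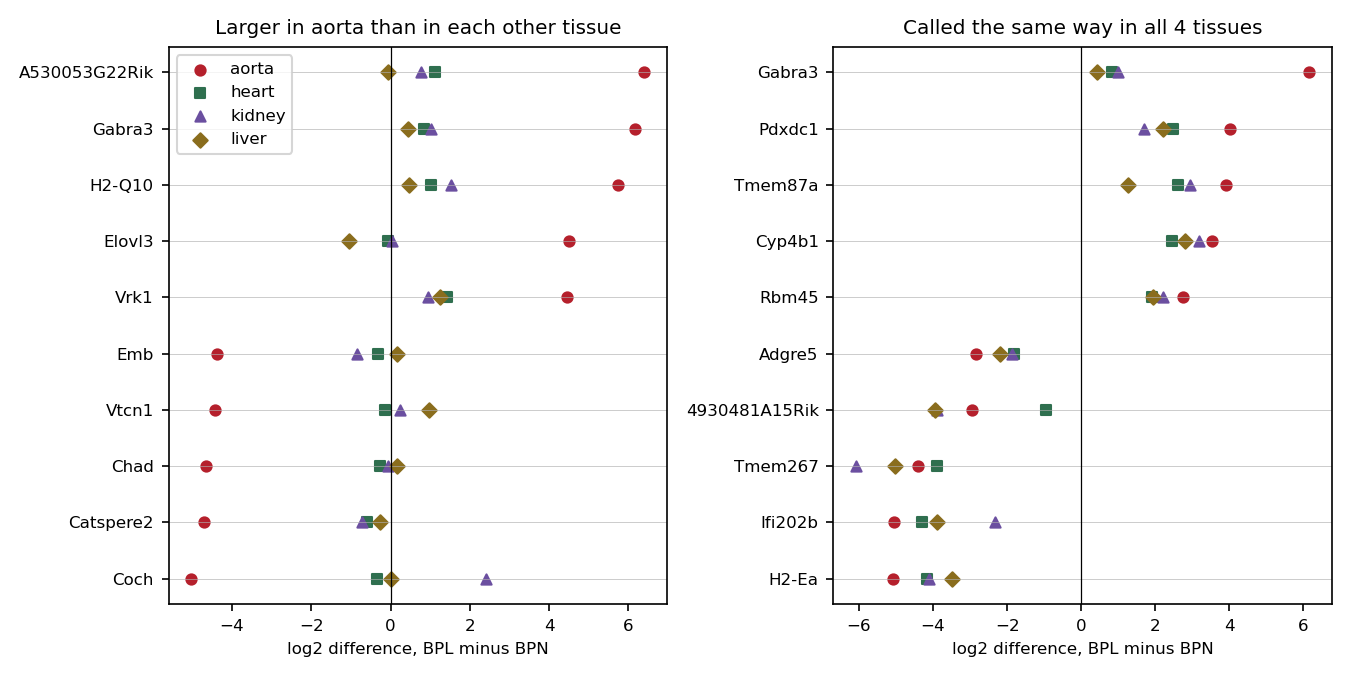
Difference in log2 intensity, BPL minus BPN, in aorta (red circles), heart (green squares), kidney (purple triangles) and liver (ochre diamonds). The left panel has the 5 largest rises and 5 largest falls that were larger in aorta than in each other tissue, where the red points stand alone, and the right panel those called the same way in all 4 tissues, where the points lie on 1 side of 0.

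Different probe sets of a gene did not always match. Of 912 genes with several probe sets and at least 1 called, 221 had 2 or more called, 200 of them in 1 direction and 21 in both. Slc15a2, a peptide transporter, was the 1 gene called in both directions by 2-fold or more, with a rise of 1.29 for its brighter probe set and a fall of 2.56 for the other.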

How the data were processed

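Expression was measured in aorta on single-colour arrays, 9 BPH, 9 BPL and 5 BPN. The values the authors deposited are linear intensities, 1 per probe set, which the submitters' processing notes credit to RMA, and their log2 was taken with no pseudocount. The array's genome build is not given in the sources used here. Of 38385 probe sets, 24478 had 1 gene symbol, 65 several and 13842 none in the platform table. Genes with several probe sets were read from the brightest on average, which gave 19147 genes.

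Strains were compared with limma 3.58.1 in R 4.3.3 over the 23 aorta arrays, with Benjamini-Hochberg adjustment, and the fit was tested on simulated data. Tissue differences came from 1 joint fit of 12 groups. Of 886 genes on 40 lists, 755 were measured. The members and lists were chosen with earlier results of these data known. Named were the 12 largest rises and falls without overlap, up to 4 called members per list and direction with the first 2 uncalled, and 5 genes per direction for each tissue pattern. Other genes named, such as Ccn2, Jun, Dusp1, Zfp36, Csrnp1, Tagln, Col3a1, Cd74, Fabp4, Thbs2, Mmp14 and Timp2, were picked after their values were seen. Arrays could be neither paired nor tied to a mouse. The number of arrays limits the precision.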

Additional observations from a re-analysis of the deposited data

Results flagged for a closer look

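Single arrays stood apart from the rest of their strain in 4 of 92 groups checked, and chance alone gives about 1 in 20. Catspere2 was 3.21 in BPL array 22, below 3.60 to 3.92 in the other BPL arrays. The mean of the adrenal, kidney and liver genes was 4.48 in BPL array 26, above 3.53 to 3.97 in the others. The mean of the matricellular genes was 10.42 in BPN array 13, against 10.27 to 10.31. The mean of the red blood cell genes was 5.76 in BPN array 15, under 6.01 to 6.07.

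The difference between BPL and BPN was itself different in aorta and heart for 3082 probe sets (8.03%), in aorta and kidney for 3677 (9.58%) and in aorta and liver for 4316 (11.2%). For 10 named genes the gap to the nearest tissue was given by limma. Against heart it was 5.28 for A530053G22Rik, 3.05 for Vrk1, -4.69 for Coch, -4.39 for Chad and -4.27 for Vtcn1. Against kidney it was 5.15 for Gabra3, 4.21 for H2-Q10, 4.48 for Elovl3, -4.00 for Catspere2 and -3.54 for Emb. Those of A530053G22Rik and H2-Q10 rest on BPN aorta means under the floor of 2.9, so they are fitted values that give no size. These genes were chosen as the largest of their kind, and aorta RNA was amplified by a protocol of its own.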

How the results depend on the processing

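No named gene called in the main fit reversed under any alternative. Of 7942 alternative values, 7466 were counted as unchanged. For a list or total this allowed a limited shift of the count, and for an uncalled gene a change of sign. Adgre1, not called, ran from -0.22 to 0.10 over the fits that left out an array. The joint fit of 12 groups called 7431 probe sets, 3922 higher and 3509 lower, and 20 respiratory genes. A pseudocount of 16 left 500 probe sets at 2-fold, and 1 probe set per gene gave 1316 lower and 482 at 2-fold. A common median moved the share called higher from 49.7% to 43.2%. The intensity trend called 9 contractile genes lower. Interactions fitted on only 2 tissues and strains gave 2191 for kidney and 2753 for liver. Leaving out each array gave 3136 to 4031 calls in all, 4 to 7 heat shock, 3 to 6 class II and 4 to 15 respiratory genes. Of 192 named genes called, 156 kept the call in each such fit. In at least 1 of the other settings 58 lost it. The adipocyte mean as a covariate lost 50, and leaving out BPN arrays 13 and 14 together lost 41. Those lost with the covariate included Eln (adjusted p = 0.0573), Des (0.0726), Synm (0.155) and Plod2 (0.168). Chosen after seeing the data, the adipocyte mean as a covariate kept 2252 of the calls and left 2 contractile, 3 fibrillar collagen, 5 crosslinking, 6 TGF-beta and BMP, 5 immediate early and 4 heat shock genes lower and 6 lipid and 0 respiratory genes higher. Without BPN arrays 13 and 14 together, also chosen after seeing the data, 2540 probe sets were called, 1165 higher, with 7 immediate early, 3 heat shock and 3 class II genes lower and 6 lipid and 1 respiratory genes higher. The cause of these changes was not tested, and that fit has fewer arrays. No paired analysis was possible because the BPL and BPN aorta arrays share no replicate number. In heart, kidney and liver a replicate block gave 3206, 1889 and 2902 calls and interactions of 2593, 2942 and 3838. There, deviations from the strain mean correlated at -0.15 to 0.27 between same-numbered BPL and BPN arrays, over 14 pairs. Calls of dim probe sets are limited by the array's background.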
